A study of Mus musculus with 12 samples.

Results

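The genes described here are the mouse zinc finger protein genes with a symbol of the form Zfp and a number whose RNA was measurable on the arrays. They were chosen by symbol and level: a probe set (the group of probes that reports 1 transcript) had to be annotated with a single symbol of that form, the probe set with the highest mean stood for the gene, and its mean log2 value over all 12 arrays had to be at least 6.0. Of 317 such genes on the array, 250 passed and 67 did not, among 13186 genes of any name at that level. Because the members were selected on the mean level, their levels are given as a description only. The lowest member was Zfp532 at 6.02, the median member stood at 7.79 and the highest was Zfp330 at 11.45. Just inside the level lay Zfp532 (6.02), Zfp758 (6.04) and Zfp28 (6.05), and just outside it Zfp455 (5.998), Zfp583 (5.99) and Zfp462 (5.98).

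The cells were 1 clone, number 483, of a T-lineage acute lymphoblastic leukaemia (T-ALL) of the mouse, of C57BL6 background. Cells received 100 µM 4EGI-1 for 2 h or served as controls, which the sample labels call untreated and the protocol calls DMSO, the solvent. 4EGI-1 is a small molecule that hinders the cap-binding protein eIF4E from binding the scaffold protein eIF4G, a step in the start of cap-dependent translation. From each condition, RNA of pooled polysome fractions of a sucrose gradient and a reference RNA were profiled, giving 4 groups of 3 arrays: cytoplasmic control, cytoplasmic 4EGI-1, polysomal control and polysomal 4EGI-1. The reference RNA has the label cytoplasmic but the title Total, and the protocol takes it from whole cells, so nuclear RNA may be included. The control differs from the treated group by the inhibitor, and the clone and strain are common to all 4 groups. How the leukaemia clone arose is not given in the sources used here. P-values rest on the spread between arrays within groups, estimated for each gene over all 4 groups together and drawn towards that of all genes tested. This spread could be technical if the arrays share a culture.

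Most Zfp genes encode proteins with tandem C2H2 zinc fingers, short folds that hold a zinc ion and together read a stretch of DNA. Many of these proteins also carry a KRAB domain, which recruits the corepressor Trim28 and, through it, the histone methyltransferase Setdb1, and in mice they are best known for silencing retroelements and imprinted regions. Their genes arose by repeated local duplication, so many sit side by side on a chromosome and resemble one another. Others in the group have different work, among them Zfp36, which speeds the decay of mRNAs with AU-rich elements, and Zfp207, a mitotic spindle protein. A polysome is an mRNA that carries several ribosomes, so polysomal RNA reports the level of an mRNA and its loading with ribosomes together.

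Values are on a log2 scale and each array was brought to a common scale, so each change is measured against the rest of the array and a change in total RNA or in overall translation is not measured. Array medians lay between 6.40 and 6.56 and no 2 arrays held identical values. The 8 T cell markers with a value were all at or above the level, with a median of 11.2 and a lowest of 6.61. Of 4 B cell markers 2 were at the level (median 5.45, highest 6.67), and of 5 myeloid markers 2 (median 5.65, highest 6.74). Among fibroblast markers 4 of 5 were at the level (median 7.01), and both erythroid markers with a value were, at a median of 6.65. From control to 4EGI-1 the T cell marker median went from 11.15 to 11.00 in cytoplasmic and from 11.50 to 11.12 in polysomal RNA, and the fibroblast median from 7.06 to 7.07 and from 6.97 to 6.93. The part of the cell makeup in the results was not tested. In bulk RNA, a change in the cells present cannot be told apart from a change in RNA per cell. The spread between arrays was larger in cytoplasmic than in polysomal RNA, with a median standard deviation (SD) of the members of 0.143 and 0.129 in cytoplasmic control and 4EGI-1 arrays and 0.0763 and 0.0993 in the polysomal groups.

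Sequences upstream of the genes are shown first because a run of letters near the start site was more frequent in members that rose in both fractions than in those that rose in neither, although most of the former lack it. For 205 of the 250 members RefSeq (GRCm38.p6) gave at least 1 promoter window of 300 bases, 250 before to 50 after a start site. The search was for ACTAC followed, after any 4 bases, by CCC, on either strand, a motif picked after the values had been seen. These letters are part of a longer sequence known to be bound by Zfp143 and Thap11. Stretches of 72 bases, 5′ to 3′ on the strand of the gene, are printed for 5 members on chromosome 13 and 4 elsewhere, with the match in capitals.
Zfp759: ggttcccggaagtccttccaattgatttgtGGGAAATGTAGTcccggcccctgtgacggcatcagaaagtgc
Zfp595: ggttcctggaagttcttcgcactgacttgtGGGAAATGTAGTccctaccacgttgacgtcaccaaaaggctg
Zfp457: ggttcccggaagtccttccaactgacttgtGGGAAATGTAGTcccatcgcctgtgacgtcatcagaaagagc
Zfp708: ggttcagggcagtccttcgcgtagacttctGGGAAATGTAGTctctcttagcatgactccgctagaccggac
Zfp748: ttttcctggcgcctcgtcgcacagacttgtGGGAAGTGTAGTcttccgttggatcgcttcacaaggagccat
Zfp605: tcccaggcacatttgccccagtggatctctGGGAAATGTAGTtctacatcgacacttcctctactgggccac
Zfp189: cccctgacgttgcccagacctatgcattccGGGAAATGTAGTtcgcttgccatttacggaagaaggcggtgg
Zfp84: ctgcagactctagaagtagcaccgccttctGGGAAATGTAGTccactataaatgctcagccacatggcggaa
Zfp60: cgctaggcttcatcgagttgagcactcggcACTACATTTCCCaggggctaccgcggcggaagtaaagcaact

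In GRCm38.p6 these stretches lie at chr13:67128146-67128217 (Zfp759, plus strand), chr13:67332570-67332641 (Zfp595, minus strand), chr13:67306450-67306521 (Zfp457, minus strand), chr13:67081556-67081627 (Zfp708, minus strand) and chr13:67553137-67553208 (Zfp748, minus strand). The others lie at chr5:110110039-110110110 (Zfp605, plus strand), chr4:49521124-49521195 (Zfp189, plus strand), chr7:29768499-29768570 (Zfp84, plus strand) and chr7:27731314-27731385 (Zfp60, plus strand). The match began at position -52 from the start site in Zfp759, -51 in Zfp595, -79 in Zfp457, -26 in Zfp748, -23 in Zfp605 and Zfp84 and -65 in Zfp60. Zfp60 has the letters in the other orientation. Compared base by base with no gaps, the stretches of Zfp759 and Zfp457 were identical at 65 of 72 bases and those of Zfp759 and Zfp595 at 54, so the duplicates on chromosome 13 are not independent instances. The stretches of Zfp605 and Zfp84, from different chromosomes, shared 32 of 72.

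The match was present in 24 of 76 windows (31.6%) of the 66 members with a window that rose in both fractions. It was present in 12 of 131 windows (9.16%) of members that rose in neither, in 18.9% of all members' windows, in 5.17% of windows of all genes tested and in 2.75% of all windows in the table. Among members that rose in both, chromosome 13 held 11 of 15 windows with a match (73.3%) and the other chromosomes 13 of 61 (21.3%), against 12 of 129 (9.30%) for members off chromosome 13 that rose in neither. The ETS-type letters CCGGAAG, also on both strands, were in 27.6% of the windows of members that rose in both and 18.3% of those that rose in neither, against 16.1% for genes tested. The cAMP-response letters TGACGTCA were in 5.26% and 6.11%, against 2.91% for genes tested. All 4 of the windows with TGACGTCA among members that rose in both were on chromosome 13 (4 of 15, 26.7%), with 0 of 61 elsewhere, against 7 of 129 (5.43%) for members off chromosome 13 that rose in neither. TGATGNAA, searched as an ATF4-type element, was in 1.32% and 2.29%, against 2.24% for genes tested. These shares describe letters in windows, with no test, and a match is not evidence of binding.

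With 4EGI-1, RNA of many Zfp genes rose in the cytoplasmic fraction and few fell. Of the 250 members 96 rose (38.4%) and 6 fell (2.40%), where 10.0% of the 13186 genes tested rose and 7.78% fell (limma, Benjamini-Hochberg adjusted p under 0.05). The median change of the members was 0.19 on the log2 scale and that of all genes tested was -0.03. A rise of at least 1.5-fold was seen in 42 of the 96, and in 420 of the 1324 genes of any name that rose. In 89 of the 96 (92.7%) every 4EGI-1 array lay above every control array, as in 92.5% of all 1324 genes that rose, which is 9.29% of the genes tested.

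In polysomal RNA 105 members rose (42.0%) and 7 fell (2.80%), where 13.0% of all genes tested rose and 12.1% fell. The median change was 0.22 for the members and -0.03 for all genes tested. A rise of at least 1.5-fold was seen in 44 of the 105, and in 604 of the 1717 genes of any name that rose. In 104 of the 105 (99.0%) the polysomal arrays did not overlap, as in 99.7% of all 1717 genes that rose (13.0% of the genes tested). Rises in both fractions were seen in 79 members, which is 82.3% of those that rose in cytoplasmic and 75.2% of those that rose in polysomal RNA. A further 17 passed in cytoplasmic RNA alone and 26 in polysomal RNA alone, which does not show that their changes differed between fractions. In 5 members RNA fell in both fractions, 0 moved in opposite directions, and 120 passed in neither. Overlaps between fractions were not counted over all genes tested, so these numbers describe the members and do not set them apart. Across the 250 members the changes in the 2 fractions, which come from different arrays, had a Pearson correlation of 0.81 and a Spearman correlation of 0.79, and Pearson's r over all genes tested was 0.70.

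**Figure D1:**
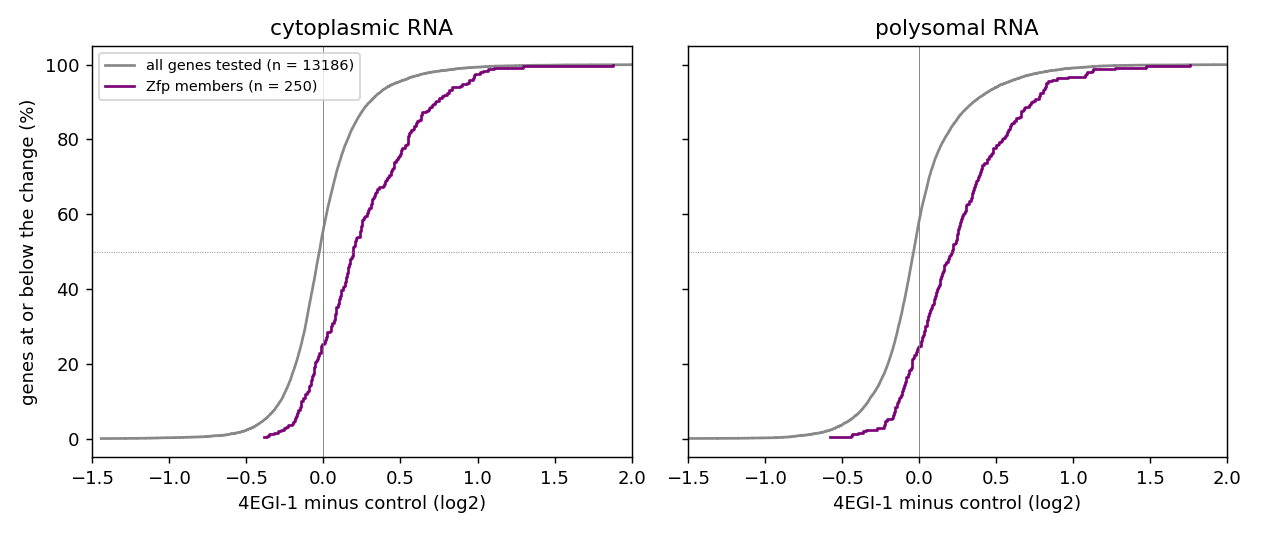
Cumulative share of genes (vertical, %) at or below a given log2 change with 4EGI-1 (horizontal) in cytoplasmic (left) and polysomal RNA (right), for the 250 Zfp members (purple) and all 13186 genes tested (grey). The purple curves lie to the right of the grey ones over most of the range, with medians of 0.19 and 0.22 against -0.03 in both panels.

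A gene could reach the level through its 4EGI-1 arrays, so a mean over 12 arrays can favour genes that rose. The control mean was below 6.0 for 10 members in cytoplasmic RNA, of which 7 rose there, and in polysomal RNA for 1, Zfp389. When all 317 Zfp genes were counted with no level filter, 88 rose in cytoplasmic RNA (background 6.35% of 19937 genes) and 101 in polysomal RNA (background 8.54%). Split by level, 16 of the 83 lowest members rose in cytoplasmic RNA, 37 of the next 83 and 43 of the 84 highest (19.3%, 44.6% and 51.2%). Of all genes tested in the same ranges of level, 6.57%, 11.5% and 12.5% rose. In polysomal RNA 30.1%, 47.0% and 48.8% of the members rose, against 6.93%, 13.8% and 18.3% of all genes.

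The member with the largest change was Zfp389, the only member that RefSeq annotates as a transcribed pseudogene (the other 249 are protein-coding). On the 3 cytoplasmic control arrays it read 5.05, 5.24 and 4.99, and on the 3 cytoplasmic 4EGI-1 arrays 6.97, 7.10 and 6.84. In polysomal RNA it read 5.59, 5.66 and 5.66 in control and 7.30, 7.54 and 7.34 with 4EGI-1. Every treated array was above every control array in both fractions, and the control arrays were below the level of 6.0. The rise was 1.88 ± 0.09 (standard error, SE, n = 3 arrays per group; limma, adjusted p = 2.1e-08) in cytoplasmic and 1.76 ± 0.09 (adjusted p = 3.4e-08) in polysomal RNA, or 3.68- and 3.38-fold. As the control signal was dim, the size of this fold is uncertain. Zfp389 reached the level of 6.0 only through its 4EGI-1 arrays. The rule of choice thus favoured a rise in this gene, and its values and p-values are given as a description only.

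Zfp605, a C2H2 zinc finger gene on chromosome 5, read 6.03, 6.61 and 6.44 on cytoplasmic control arrays and 7.91, 7.62 and 7.43 with 4EGI-1. Its polysomal values were 7.29, 7.28 and 7.27 in control and 8.57, 8.41 and 8.25 with 4EGI-1. The treated arrays were the higher ones in both fractions with no overlap. The gene rose 2.45-fold in cytoplasmic RNA (1.29 ± 0.14; limma, adjusted p = 1.72e-05) and 2.19-fold in polysomal RNA (1.13 ± 0.14; adjusted p = 3.1e-05).

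Zfp51, on chromosome 17, went from 7.39, 7.65 and 7.28 to 8.65, 8.61 and 8.38 in cytoplasmic RNA and from 8.44, 8.26 and 8.27 to 9.28, 8.96 and 9.09 in polysomal RNA. The arrays of treated and control cells were again separate in each fraction, and the rises were 1.11 ± 0.11 (limma, adjusted p = 9.64e-06) and 0.79 ± 0.11 (adjusted p = 0.00011). Zfp157, on chromosome 5, had 8.20, 8.09 and 7.98 in cytoplasmic control and 9.15, 9.14 and 9.08 with 4EGI-1. It rose 2.04-fold (1.03 ± 0.08; adjusted p = 1.49e-06) there and 1.75-fold in polysomal RNA.

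The other members named for their cytoplasmic rise were Zfp617 (1.07 ± 0.15), Zfp62 (1.02 ± 0.17), Zfp759 (0.98 ± 0.12) and Zfp974 (0.98 ± 0.12), with limma adjusted p from 5.3e-05 to 0.000662. Zfp62 is the least even of them: its cytoplasmic control arrays read 8.44, 8.91 and 8.09 and its treated arrays 9.59, 9.73 and 9.16. The treated arrays of Zfp62 were all higher, although the control arrays spanned most of a log2 unit. Zfp974 rose from a control mean of 5.91 ± 0.14 (SD, n = 3), below the level of 6.0.

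In polysomal RNA the largest rises after Zfp389 were those of Zfp759 and Zfp595, both in the same region of chromosome 13. Zfp759 read 7.20, 7.25 and 6.89 on polysomal control arrays and 8.67, 8.41 and 8.69 with 4EGI-1, a rise of 1.48 ± 0.12 or 2.78-fold (limma, adjusted p = 7.51e-07). Zfp595 read 7.79, 7.83 and 7.82 in control and 9.22, 8.97 and 9.06 with 4EGI-1, a rise of 1.27 ± 0.11 or 2.42-fold (adjusted p = 1.21e-06). In both genes all 3 treated arrays were more than 1 unit above all 3 control arrays. Zfp110 (1.12 ± 0.09), Zfp708 (1.09 ± 0.17), Zfp799 (1.09 ± 0.09) and Zfp457 (1.08 ± 0.09) followed, with adjusted p from 6.84e-07 to 0.000237, and Zfp605 completed the 8 named.

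**Figure D2:**
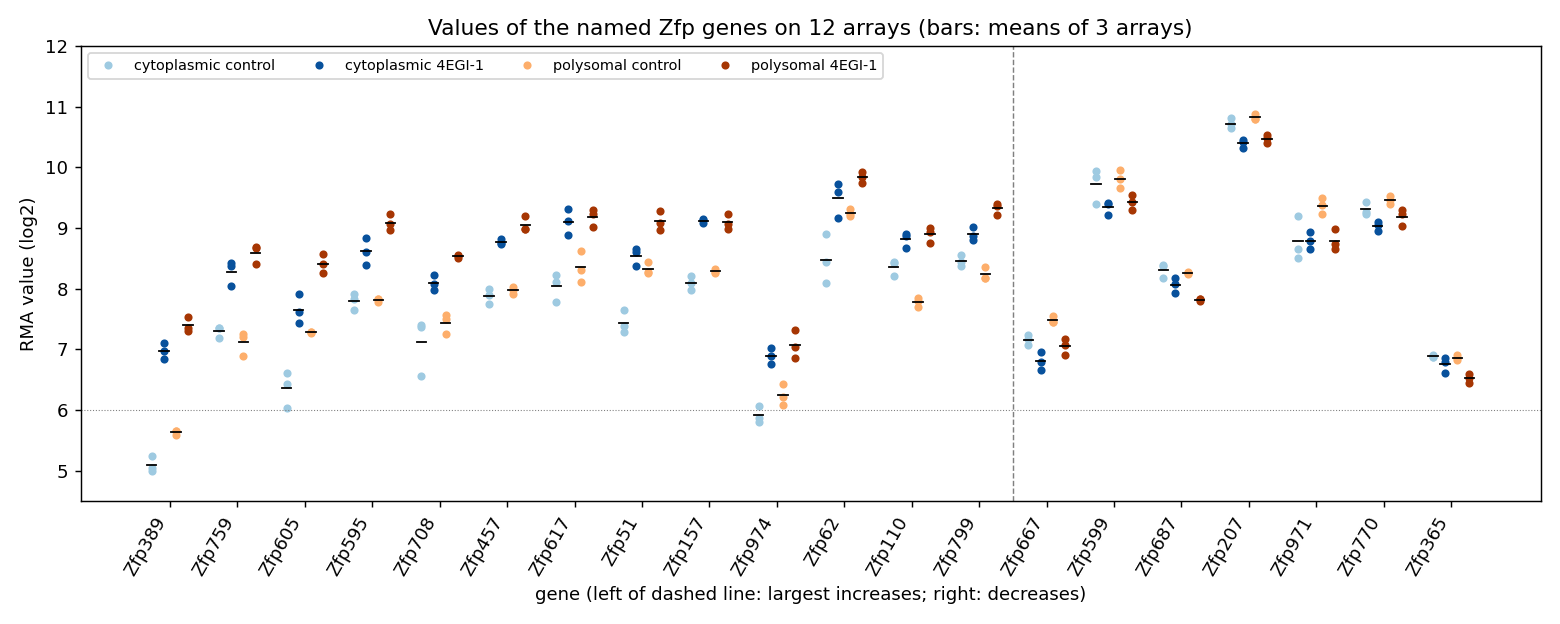
Deposited log2 values (vertical) of the named Zfp genes (horizontal) on each of the 12 arrays, coloured by group, with a bar at the mean of 3 arrays and a dotted line at the level of 6.0. Left of the dashed line treated arrays (dark) lie above control arrays (light) in each fraction, as for Zfp389 at means of 5.09 and 6.97 in cytoplasmic RNA, and right of it are the genes with the largest decreases.

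**Figure D3:**
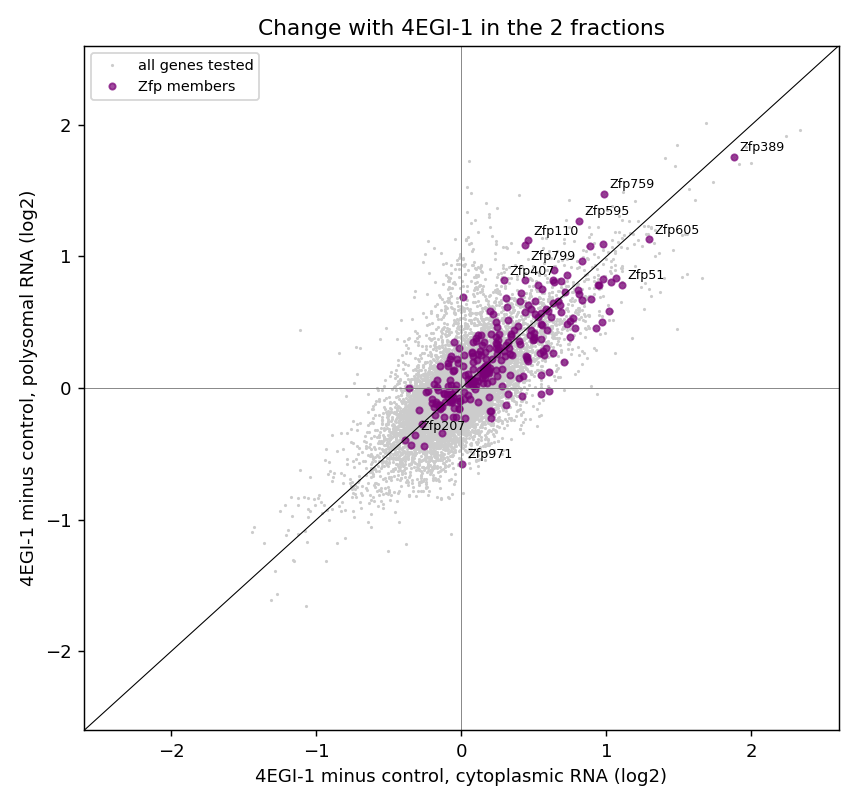
Log2 change with 4EGI-1 in cytoplasmic RNA (horizontal) against that in polysomal RNA (vertical) for the 250 members (purple) and all genes tested (grey), with the line of equal change. The upper right quadrant holds 170 of the 250 members, and Zfp110, Zfp799 and Zfp407 lie above the line of equal change. All genes tested were not counted by quadrant.

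Decreases were few and small. Zfp207, the spindle protein that binds Bub3 (also called BuGZ), read 10.80, 10.71 and 10.65 on cytoplasmic control arrays and 10.42, 10.46 and 10.32 with 4EGI-1. In polysomal RNA it read 10.88, 10.80 and 10.80 and then 10.53, 10.48 and 10.40. The treated arrays were the lower ones in both fractions, with changes of -0.32 ± 0.08 (limma, adjusted p = 0.00809) and -0.36 ± 0.08 (adjusted p = 0.00251). With the 6 cytoplasmic arrays fitted alone the cytoplasmic adjusted p of Zfp207 was 0.0693.

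Zfp667 fell by 0.35 ± 0.09 in cytoplasmic and by 0.44 ± 0.09 in polysomal RNA (limma, adjusted p = 0.0157 and 0.00252). Zfp687 (-0.26 ± 0.08 and -0.44 ± 0.08) and Zfp770 (-0.27 ± 0.09 in both) also fell in both, as did Zfp599 (-0.39 ± 0.13 in both), whose cytoplasmic arrays overlapped between groups. Zfp217, which encodes a repressor found in CoREST-type complexes, fell by 0.36 ± 0.12 in cytoplasmic RNA with overlapping arrays (adjusted p = 0.0465) and read 7.99 in both polysomal groups. Of 23 alternative fits, 14 lost the cytoplasmic call of Zfp687, 13 that of Zfp770 and 3 that of Zfp667, whose change was -0.17 with array weights. The polysomal calls of Zfp599 and Zfp770 were each lost in 6, with adjusted p up to 0.144 and 0.173. The number of cytoplasmic decreases was 2 in place of 6 without cytoplasmic control array 1 or 3, cytoplasmic 4EGI-1 array 1 or 2, any polysomal control array, or polysomal 4EGI-1 array 1 or 3, and it was 10 without cytoplasmic 4EGI-1 array 3. In a limma fit of the 6 cytoplasmic arrays alone 0 passed, with 7 at an unadjusted p under 0.05. The share of all genes at that unadjusted threshold was not counted, so the 7 are not a result about the members.

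In polysomal RNA alone, Zfp971 and Zfp365 (-0.34 ± 0.08; limma, adjusted p = 0.00473) passed in addition. Zfp971 read 9.49, 9.37 and 9.23 in polysomal control and 8.98, 8.74 and 8.65 with 4EGI-1, a change of -0.57 ± 0.15 (limma, adjusted p = 0.00952). Its cytoplasmic control arrays were uneven, at 8.65, 9.20 and 8.51, around the same mean (8.78) as the treated ones (8.79), and the difference between its changes did not pass (adjusted p = 0.204). Without 4EGI-1 polysomal array 3 its polysomal adjusted p was 0.0506, and 4 polysomal decreases passed in place of 7.

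Chromosome 13 carries a dense group of these genes. Of its 23 members, 18 rose in cytoplasmic RNA and 18 in polysomal RNA (78.3% in each), with medians of 0.60 and 0.52. Of all members 38.4% and 42.0% rose in the 2 fractions, and of all genes tested 10.0% and 13.0%. In a run of 8 Zfp genes from Zfp455 to Zfp459 that no other protein-coding gene interrupts in the RefSeq table, 5 are members (Zfp456, Zfp457, Zfp458, Zfp595 and Zfp953), and all 5 rose in both fractions. Zfp457 read 7.74, 7.99 and 7.90 in cytoplasmic control against 8.82, 8.75 and 8.74 with 4EGI-1, with no overlap, and rose by 0.89 ± 0.09 (limma, adjusted p = 6.91e-06). Zfp458 rose by 0.95 ± 0.14 (adjusted p = 0.000235), from 7.24, 7.66 and 7.85 to 8.52, 8.76 and 8.31. Zfp58, Zfp87 and Zfp748, another run on this chromosome, rose in both fractions too, by 0.51 to 0.69 in cytoplasmic and by 0.56 to 0.81 in polysomal RNA.

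Several of these chromosome 13 genes carry a RefSeq synonym for candidates at the regulator of sex-limitation locus, whose KRAB zinc finger proteins repress male-biased liver genes. Of 9 members with that synonym, 9 rose in cytoplasmic (100%) and 8 in polysomal RNA (88.9%), with a median of 0.81 in each. Zfp273 (0.19 in polysomal RNA) was the exception. The shares of all members that rose were 38.4% and 42.0%, and those of all genes tested 10.0% and 13.0%. The list of members with the synonym was drawn up after the values had been seen. It includes chromosome 13 genes already counted above. Probe sets of near-identical genes can read each other's RNA, so which of these copies the signal came from is uncertain.

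Zfp708, which silences a class of endogenous retroviruses, read 7.38, 7.41 and 6.56 on cytoplasmic control arrays and 8.23, 8.07 and 7.97 with 4EGI-1. Control array 3 is the low one, and the treated arrays lie above all 3. The rise was 0.98 ± 0.17 (limma, adjusted p = 0.000996). Members of chromosome 13 that did not pass in either fraction were Zfp366 (-0.15 and -0.13) and Zfp367 (0.15 and 0.04).

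On chromosome 17, 16 of 27 members rose in cytoplasmic RNA (59.3%) and 14 in polysomal RNA (51.9%). They were led in the cytoplasmic fraction by Zfp51 (1.11) and Zfp959 (0.94). Chromosome 7 has the most members, 66, of which 21 and 28 rose (31.8% and 42.4%). Beside these stand 38.4% and 42.0% of all members and 10.0% and 13.0% of all genes tested. The shares on chromosome 7 are thus below and near those of all members. The 13 members of a run of 15 genes from Zfp84 to Zfp146 included 8 and 7 that rose, and the 3 of the run from Zfp329 to Zfp128, which includes Zfp110, rose in both fractions. By contrast 0 of 4 members between Zfp524 and Zfp580 and 0 of 3 between Zfp768 and Zfp764 rose in either fraction. Over all chromosomes, members with a Zfp neighbour rose in 56 (cytoplasmic) and 57 (polysomal) of 120 (46.7% and 47.5%). Members without one rose in 40 and 48 of 130 (30.8% and 36.9%).

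**Figure D4:**
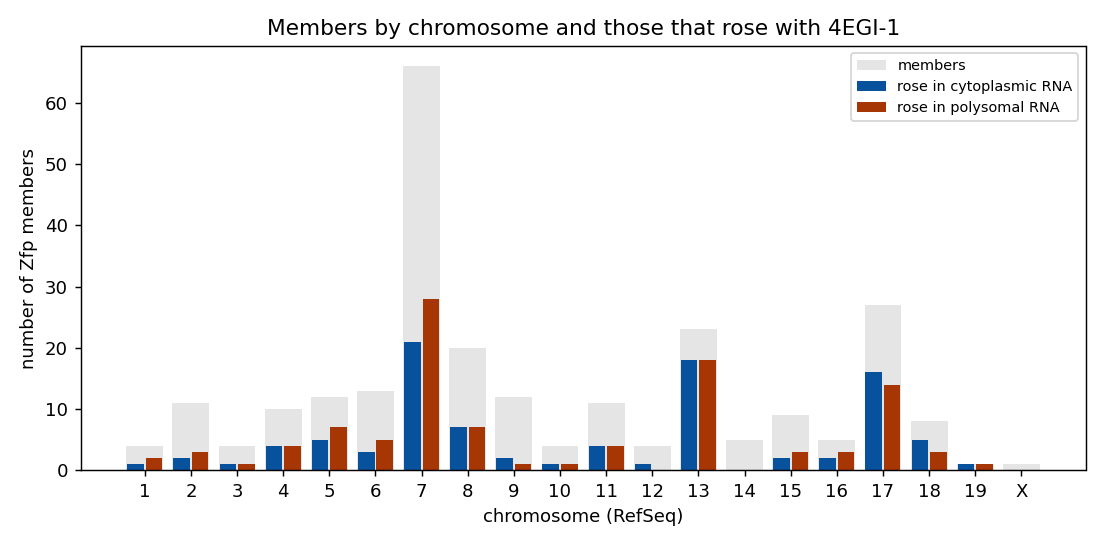
Number of members on each chromosome (grey bars) and of those that rose with 4EGI-1 in cytoplasmic (blue) and polysomal RNA (red). On chromosome 13, 18 of 23 members rose in each fraction, and on chromosome 7 21 and 28 of 66. Of all 250 members 96 and 105 rose (38.4% and 42.0%), and of all genes tested 10.0% and 13.0%.

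The change in polysomal RNA exceeded that in cytoplasmic RNA in 3 members (1.20%, where 2.31% of all genes tested passed in this direction), and the reverse was called in 0 (background 0.607%). At an unadjusted p under 0.05 the limma fit had 15 members with a positive and 14 with a negative difference. The share of all genes at that unadjusted threshold was not counted, so these numbers are not a result about the members. With arrays weighted by their quality (limma's array weights), 22 members had a positive and 33 a negative difference, so the counts of differences depend on that setting. The share of all genes with array weights was not counted either. Without cytoplasmic control array 2, 5 members had a negative difference. Zfp110, which encodes a KRAB zinc finger protein that binds the neurotrophin receptor p75 (also called Nrif), read 7.69, 7.79 and 7.84 in polysomal control and 9.0002, 8.76 and 8.94 with 4EGI-1. Its cytoplasmic arrays read 8.42, 8.21 and 8.44 and then 8.87, 8.68 and 8.90. It thus lay lower in polysomal than in cytoplasmic RNA in control cells (-0.58 ± 0.09; adjusted p = 0.000333) and stood at 8.90 against 8.82 after treatment, a difference of changes of 0.67 ± 0.13 (limma, adjusted p = 0.0125).

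Zfp799, on chromosome 17, read 8.17, 8.17 and 8.36 in polysomal control and 9.39, 9.21 and 9.36 with 4EGI-1, while its cytoplasmic values went from 8.37, 8.44 and 8.55 to 9.02, 8.80 and 8.87. It rose in both fractions, by 1.09 ± 0.09 in polysomal and 0.44 ± 0.09 in cytoplasmic RNA, and the difference was 0.65 ± 0.13 (limma, adjusted p = 0.0102). Neither the Zfp110 nor the Zfp799 promoter window held the letters printed above.

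Zfp407, a zinc finger protein with a role in adipocyte glucose uptake, read 8.64, 8.64 and 8.66 in polysomal control and 9.41, 9.39 and 9.60 with 4EGI-1. Its cytoplasmic arrays moved from 9.16, 9.19 and 8.94 to 9.50, 9.39 and 9.26. The difference of changes was 0.53 ± 0.13 (adjusted p = 0.0401), and this call was lost in 13 of 22 alternative fits. A second probe set of Zfp407 gave changes of 0.23 in cytoplasmic and 0.74 in polysomal RNA, beside 0.29 and 0.82 for the one used.

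**Figure D5:**
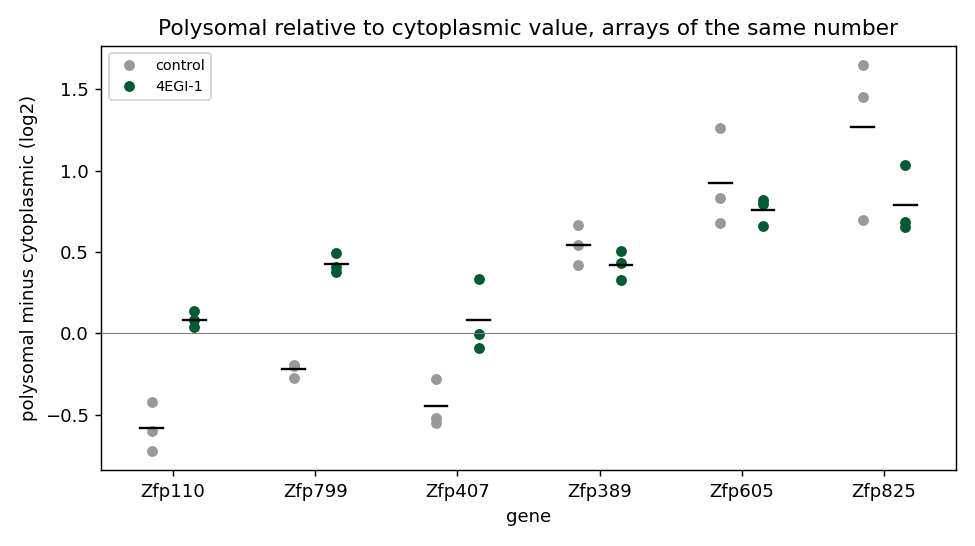
Polysomal minus cytoplasmic log2 value (vertical) for arrays of the same label number in control (grey) and 4EGI-1 (green), with means as bars, for the 3 members whose changes differed and, for comparison, Zfp389, Zfp605 and Zfp825. The numbers only label arrays and the test does not pair them. Zfp110, Zfp799 and Zfp407 have 4EGI-1 points above their control points, and the points overlap in Zfp389, Zfp605 and Zfp825.

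In control cells, 74 members (29.6%) were higher in polysomal than in cytoplasmic RNA and 21 (8.40%) lower, where 16.7% and 12.2% of all genes tested were. The highest was Zfp825, at 8.34, 9.13 and 8.40 in cytoplasmic and 9.98, 9.83 and 9.85 in polysomal control, a difference of 1.27 ± 0.17 (limma, adjusted p = 8.31e-05). The polysomal arrays were all higher, while cytoplasmic array 2 was higher than the other two. A second probe set of Zfp825 gave changes with 4EGI-1 of 0.22 in cytoplasmic and -0.31 in polysomal RNA, against 0.60 and 0.13 for the one used. Zfp758 (1.04 ± 0.12), Zfp420 (0.99 ± 0.13), Zfp273 (0.97 ± 0.14), Zfp935 (0.96 ± 0.16), Zfp605 (0.92 ± 0.14), Zfp873 (0.91 ± 0.13) and Zfp51 (0.89 ± 0.11) followed. Zfp758 was 1 of the 10 members with a cytoplasmic control mean below 6.0, so it reached the level only through its other arrays. The rule of choice thus favoured this difference in Zfp758, which is given as a description only. Of these 10 members, 5 were higher in polysomal than in cytoplasmic control RNA. The change with 4EGI-1 in cytoplasmic RNA uses the same cytoplasmic control arrays. Among the genes named here it was 1.29 for Zfp605, 1.11 for Zfp51, 0.71 for Zfp273, 0.60 for Zfp825, 0.54 for Zfp758 and 0.21 for Zfp873. Of the 74 members higher in polysomal control RNA, 49 also rose with 4EGI-1 in cytoplasmic RNA. That overlap was not counted over all genes tested.

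Lower in polysomal RNA were Zfp706 (-0.63 ± 0.14), Zfp110 (-0.58 ± 0.09), Zfp523 (-0.55 ± 0.13), Zfp692 (-0.47 ± 0.09), Zfp609 (-0.45 ± 0.13), Zfp407 (-0.45 ± 0.09), Zfp335 (-0.41 ± 0.11) and Zfp511 (-0.38 ± 0.12). The call of Zfp609 was lost without cytoplasmic control array 1 or 3 (adjusted p up to 0.0706) and that of Zfp511 without cytoplasmic control array 1 or 3 or polysomal control array 1 or 2 (up to 0.126). Zfp335, a nuclear protein needed for the maturation of naive T cells, read 8.30, 8.14 and 8.46 in cytoplasmic and 7.87, 7.89 and 7.91 in polysomal control. Its change with 4EGI-1 was -0.30 ± 0.11 in cytoplasmic RNA (adjusted p = 0.0773) and -0.17 ± 0.11 in polysomal RNA (adjusted p = 0.315), and neither passed. Without polysomal control array 1 or 3, 12 members were lower in place of 21.

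Zfp36, or tristetraprolin, did not pass with 4EGI-1 in either fraction. It read 6.51, 6.80 and 6.79 in cytoplasmic control and 6.64, 6.66 and 6.74 with 4EGI-1, groups that overlapped (-0.02 ± 0.09; limma, adjusted p = 0.928), and in polysomal RNA the change was -0.15 ± 0.09 (adjusted p = 0.228). In control cells it was 1.74-fold higher in polysomal than in cytoplasmic RNA (0.80 ± 0.09; adjusted p = 1.25e-05). Zfp148, a GC-box binding factor, changed by -0.04 ± 0.08 and 0.02 ± 0.08, and Zfp281, a factor of embryonic stem cells, by 0.16 ± 0.10 and 0.17 ± 0.10, without passing.

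On a list of members that act on RNA (binding, decay or splicing, with Zfp207 among its 7), 3 rose (42.9%) and 1 fell (14.3%) in cytoplasmic RNA. Of all members 38.4% rose and 2.40% fell there, and of all genes tested 10.0% and 7.78%. The share that rose is near that of all members and does not set this list apart. Zfp346, which binds double-stranded RNA, read 8.99, 8.96 and 8.98 in cytoplasmic control and 9.57, 9.47 and 9.56 with 4EGI-1, and rose by 0.55 ± 0.07 (limma, adjusted p = 6.13e-05). The arrays of each group lay within a narrow band and did not overlap. Zfp638 (0.44 ± 0.09) and Zfp830 (0.46 ± 0.11) rose as well. In polysomal RNA Zfp638 (0.82 ± 0.09) and Zfp346 (0.48 ± 0.07) rose (28.6%) and Zfp207 fell (14.3%). Of all members 42.0% rose and 2.80% fell in polysomal RNA, and of all genes tested 13.0% and 12.1%. Zfp36, Zfp106 and Zfp326 passed in neither fraction.

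Of 4 members known to repress retroelements or keep imprints, Zfp708 and Zfp445 rose in each fraction (50.0%). The shares that rose in cytoplasmic and polysomal RNA were 38.4% and 42.0% of all members and 10.0% and 13.0% of all genes tested. Zfp445, which protects imprinted methylation, went from 9.71, 9.69 and 9.46 to 9.89, 9.84 and 9.83 in cytoplasmic RNA and from 9.36, 9.35 and 9.32 to 9.75, 9.71 and 9.72 in polysomal RNA. The treated arrays were higher in both, by 0.24 ± 0.08 (limma, adjusted p = 0.0474) and 0.39 ± 0.08 (adjusted p = 0.00168). The cytoplasmic call was lost in 15 of 23 alternative fits. Zfp809, which represses murine leukaemia virus, changed by 0.07 ± 0.10 and 0.04 ± 0.10, and Zfp568, which controls placental Igf2, by 0.19 ± 0.08 and 0.11 ± 0.08, and these did not pass.

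Other zinc finger families were counted the same way, beside the shares of all genes tested that rose (10.0% and 13.0%) and fell (7.78% and 12.1%) in cytoplasmic and polysomal RNA. Among Zscan and Zkscan genes, which pair a SCAN domain with C2H2 fingers, 11 of 18 rose in cytoplasmic (61.1%) and 10 in polysomal RNA (55.6%) with 0 lower (medians 0.35 and 0.34), led by Zscan29 (1.11 ± 0.10 in cytoplasmic RNA; limma, adjusted p = 3.79e-06). Among Zbtb genes, which carry a BTB domain, 6 of 33 (18.2%) and 10 of 33 (30.3%) rose and 0 and 2 fell. Of 14 Klf genes 1 rose in each fraction (7.14%) and 1 and 2 fell, and of 14 Zc3h genes, whose fingers are of the CCCH type, 2 and 4 rose (14.3% and 28.6%) and 0 and 3 fell. The Klf shares and the cytoplasmic share of Zc3h are near those of all genes. The families were not tested against one another or against the members.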

How the data were processed

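The deposited series table holds 1 log2 value per probe set and array, which the authors computed by RMA, a method that corrects background, normalises arrays and summarises probes, per the submitters' processing notes; its version, and whether all arrays were normalised together, is not given in the sources used here. It has 34760 probe sets, of which the platform annotation gives 21640 a single symbol, 1321 several and 11799 none. For genes with several probe sets the highest-mean set was used, which concerned 11 members, whose sets differed in change by a median of 0.20 and at most 0.85. Another 35 probe sets name a Zfp gene beside other symbols and were left out. All 250 members were found in the RefSeq gene table under the same symbol.

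limma 3.58.1 (lmFit and eBayes, R 4.3.3) estimated the 4 group means for each of the 13186 genes at or above 6.0 from all 12 arrays, with Benjamini-Hochberg adjustment over these genes and a threshold of 0.05. Comparisons were 4EGI-1 against control in each fraction, the difference of these effects, and, in control cells, polysomal RNA against cytoplasmic. "Rose" and "fell" mean past that threshold. Errors of changes are SE of the fit. The scripts were tested on simulated data.

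The members and lists were chosen with earlier results of these data known. Named are, per comparison, up to 8 members in each direction with the largest changes among those that passed with non-overlapping arrays (for the difference of effects, non-overlapping polysomal minus cytoplasmic values), and always Zfp36, Zfp148, Zfp207, Zfp281, Zfp445, Zfp568, Zfp809 and Zfp335. Zfp91 and Zfp143 were not analysed here, and Zfp57 was below the level. Zfp217, the second probe sets, chromosome neighbours and family examples were picked after their values were seen. Sequences are RefSeq's, of GRCm38.p6; the build behind the array annotation is not stated. Protein sequences were not used here, so members are not split by KRAB domain or finger number. The deviations of arrays with the same number from their group means correlated at -0.22, 0.56 and 0.52 in cytoplasmic RNA and 0.07, 0.16 and -0.06 in polysomal RNA. Between fractions they correlated at 0.02, 0.14 and 0.13 in control and 0.04, 0.23 and 0.02 in 4EGI-1 arrays, and 5 of these 6 pairs matched their own number best. The protocol takes both RNAs from the same samples without saying that the numbers link them, and not every correlation passed 0.1, so no pairing was used in the fit.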

Additional observations from a re-analysis of the deposited data

Results flagged for a closer look

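In 3 members the effect of 4EGI-1 differed between the fractions by a test of the difference itself, which is 1.20% of them against 2.31% of all genes tested. Polysomal minus cytoplasmic, the differences of changes were 0.67 for Zfp110, 0.65 for Zfp799 and 0.53 for Zfp407 on the log2 scale (limma, adjusted p = 0.0125, 0.0102 and 0.0401). All 3 genes rose in both fractions, and the rise was larger in polysomal RNA. Over the alternatives the difference ranged from 0.60 to 0.74 for Zfp110, from 0.48 to 0.71 for Zfp799 and from 0.46 to 0.61 for Zfp407, with the highest adjusted p at 0.049 for Zfp110, 0.0409 for Zfp799 and 0.135 for Zfp407.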

How the results depend on the processing

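The numbers of members that rose kept within 1.5 times of the reported ones: 66 (cytoplasmic arrays alone) to 138 (array weights) against 96 in cytoplasmic RNA and 78 to 127 against 105 in polysomal RNA. Members higher in polysomal than cytoplasmic control RNA numbered 55 to 89 against 74. Decreases and differences of effects depended on the settings. Members lower in cytoplasmic RNA numbered 2 with no level filter, 2 among all Zfp genes at any level, 20 with array weights and 0 with cytoplasmic arrays alone, and 2 to 10 with 1 array left out. Members lower in polysomal RNA numbered 13 with array weights, 11 with polysomal arrays alone and 4 to 7 with 1 array left out. For the difference of effects, array weights gave 22 positive and 33 negative, quantile normalization applied again gave 1 negative, and leaving out 1 array gave 2 to 4 positive and 0 to 5 negative. Members lower in polysomal than cytoplasmic control RNA numbered 36 with array weights and 12 to 23 with 1 array left out. The share of all genes was counted for the reported fit and, for rises, with no level filter. It was not counted for the other alternatives, so whether these shifts are particular to the members is not known. The cause was not tested.

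Of 50 gene values that passed, 38 passed under every alternative and 12 lost the call under at least 1, and 0 of the 50 changed sign. Changes near 0 that had not passed did change sign. In cytoplasmic RNA, array weights gave changes of 0.0848 for Zfp36, 0.0481 for Zfp148 and -0.0394 for Zfp809. With 1 array left out, Zfp36 ranged from -0.112 to 0.0367 (above 0 without control array 2 or 3 or 4EGI-1 array 1) and Zfp809 from -0.0709 (without control array 3) to 0.155. In polysomal RNA Zfp148 ranged from -0.0227 (without control array 2) to 0.0523. Polysomal against cytoplasmic control, Zfp809 was -0.0455 with array weights and -0.00714 with quantile normalization applied again, and ranged from -0.0731 (without cytoplasmic control array 3) to 0.153 with 1 array left out.

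With the array number as a replicate block, 99 members rose and 7 fell in cytoplasmic RNA, 108 and 7 in polysomal RNA, 4 and 0 passed in the difference of effects, and 79 and 23 in polysomal against cytoplasmic control. The numbers were not shown to pair the arrays.

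With 3 arrays per group the precision is limited, the pooled spread understates that of cytoplasmic arrays and overstates that of polysomal ones, and members near 6.0 are dim.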

Other observations

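Genes of the KRAB corepressor machinery, through which many Zfp proteins act, were counted beside the members. Of 20 tested, 1 rose in cytoplasmic RNA (Smarcad1, 0.31 ± 0.10, limma, adjusted p = 0.0378), while 6 rose and 1 fell in polysomal RNA and 5 passed with a difference of effects above 0. Of all genes tested, 10.0% rose in cytoplasmic RNA, and 13.0% rose and 12.1% fell in polysomal RNA. A difference above 0 passed in 2.31% of all genes tested. Beside these stand 1 of 20 (5.00%) that rose in cytoplasmic RNA, 6 of 20 that rose in polysomal RNA and 5 of 20 (25.0%) in the difference. The cytoplasmic share rests on 1 gene and does not set this list apart from all genes. The list was not tested against all genes. Trim28 itself changed by -0.12 ± 0.12 and -0.09 ± 0.12 and did not pass in either. In polysomal RNA the rises were Uhrf1 (0.93 ± 0.08) and Dnmt1 (0.92 ± 0.07), which maintain DNA methylation, Chd4 (0.81 ± 0.08), the NuRD remodelling enzyme, the histone methyltransferase Setdb1 (0.67 ± 0.08), Smarcad1 (0.66 ± 0.10) and Atf7ip (0.23 ± 0.07), the partner of Setdb1. Mta1, another NuRD subunit, fell by 0.60 ± 0.15 (limma, adjusted p = 0.00902). The difference of effects was 0.90 ± 0.11 for Chd4, 0.86 ± 0.11 for Uhrf1, 0.80 ± 0.10 for Dnmt1, 0.50 ± 0.11 for Setdb1 and 0.41 ± 0.10 for Atf7ip, with limma adjusted p from 0.000276 to 0.0417. In control cells these 5 lay lower in polysomal than in cytoplasmic RNA, from -0.26 for Atf7ip to -1.13 for Chd4, a comparison that shares the control arrays with the difference of effects.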
